A study of Mus musculus with 18 samples.

Results

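Small RNA libraries of femoral condyle cartilage from the uninjured (contralateral, left) knee of mice at day 7 after anterior cruciate ligament (ACL) rupture of the other knee were compared with libraries from naive mice that were never loaded. The rule took the 3 contralateral and the 6 naive libraries by their treatment label, 9 of 18 libraries in all, and 428 of the 1412 mature miRNAs in the count table passed a low-count filter and were tested. The question was whether the uninjured knee of an injured animal changes, through a systemic response or through altered loading, so that it would not stand in for a naive joint.

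In the contralateral group the right knee of male C57Bl/6J mice aged 12 weeks received a single mechanical load of 12 N that ruptured the ACL, and the left knee was left alone. The naive group had neither load nor rupture, and its left and right knees were pooled separately. The series' design text gives pools of 4 mice for every library, whereas the methods name 6 naive mice in all. The supplement ties pools of 4 to partial cartilage loss at day 7. Naive pools may therefore have been smaller than contralateral ones, and their size is not settled. With left and right knees of the naive mice pooled apart, naive libraries of the 2 sides share animals, and the labels do not say which. The tests, intervals and SDs below count the 6 naive libraries as separate samples. Where they rest on shared animals, p-values may be too small and intervals too narrow. All animals carried the same label genotype (C57bl6), and the labels name the tissue cartilage and the cell type chondrocyte. In bulk tissue, fewer cells of a type and less of a miRNA per cell cannot be told apart.

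miRNAs are short RNAs that guide Argonaute proteins to partly complementary sites in messenger RNAs, mostly through the seed at bases 2 to 8, and so lower the stability and translation of those messages. miR-140, made from the Wwp2 locus, is the best known miRNA of chondrocytes, and its loss in mice disturbs skeletal growth and articular cartilage. miRNAs such as miR-21 and miR-27 respond to mechanical load in cartilage, and others, such as miR-142a, miR-451a, miR-1a and miR-126a, are characteristic of blood cells, muscle or vessels and report on neighbouring tissue in a dissected sample.

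Library totals were 1410173, 4088852 and 2508000 counts in contralateral 1, 2 and 3 and ranged from 864123 to 2450093 in the naive group. Among the 9 libraries, 3 stood apart. Contralateral 1 held the highest value of the 9 libraries for 128 of the 428 miRNAs and the lowest for 133, and it lay more than 2-fold above all the others for 20 miRNAs and more than 2-fold below them for 28. On the first principal component of log2 CPM (40.8% of the variance) it sat at 19.5, whereas the other 8 libraries lay between -4.75 and -0.51. Naive 3 and naive 5, the libraries with the lowest totals, separated on the second component (25.6%), at 11.1 and 8.06, whereas the others reached no more than 1.44. Mean Euclidean distance between libraries was 20.1 among the 3 contralateral libraries, 13.97 among the naive libraries and 16.4 between the groups. Without contralateral 1 the mean distance between the groups was 12.7. Naive 3 and naive 5 enter a larger share of the naive pairs than of these, so this value and the naive mean are not like for like. For many described log2 differences, the value without contralateral 1, or without naive 3 and 5, is given beside them. A difference given without such a value is not thereby shown to hold when these libraries are left out.

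**Figure D1:**
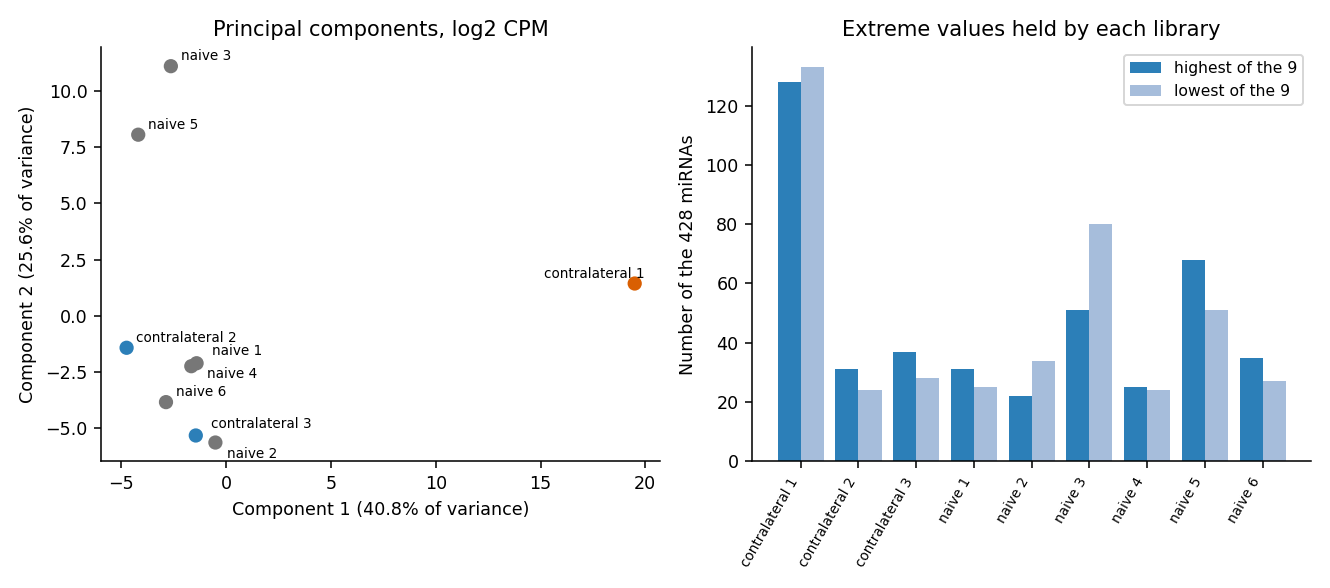
Left, the 9 libraries on the first and second principal components of log2 CPM over 428 miRNAs (orange, contralateral 1; blue, contralateral 2 and 3; grey, naive). Right, for how many of the 428 miRNAs each library held the highest (dark) or the lowest (light) value of the 9. Contralateral 1 lies alone at the right of the first component and holds 128 highest and 133 lowest values, while contralateral 2 and 3 lie among naive libraries.

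Mature sequences were found in RefSeq (GRCm38.p6) for 365 of the 428 tested names. Those below are shown for 4 reasons: the pair from the X-linked miR-450 hairpins was among the higher miRNAs with the smallest p-values, miR-6412 and miR-31-5p were lower without overlap, the sets of miR-17-5p and miR-103-3p each share a seed and were mostly lower, and the miR-27 pair shows how contralateral 1 deviated between near-identical sequences. They are written 5′ to 3′, with the seed (bases 2 to 8) in capitals.
miR-450a-5p: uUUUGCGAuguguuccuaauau
miR-450b-5p: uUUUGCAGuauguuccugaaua
miR-6412: uCGAAACCauccucagcuacua
miR-31-5p: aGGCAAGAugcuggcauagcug
miR-17-5p: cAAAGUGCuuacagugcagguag
miR-93-5p: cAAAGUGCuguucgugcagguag
miR-106a-5p: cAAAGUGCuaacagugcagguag
miR-20a-5p: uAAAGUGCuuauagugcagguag
miR-103-3p: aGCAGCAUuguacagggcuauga
miR-107-3p: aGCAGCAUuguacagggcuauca
miR-27a-3p: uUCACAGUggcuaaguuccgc
miR-27b-3p: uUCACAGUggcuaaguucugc

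Of 428 miRNAs, 0 (0%) passed an adjusted p of 0.05 between contralateral and naive cartilage in limma-voom with Benjamini-Hochberg adjustment, and the smallest adjusted p was 0.675. At an unadjusted p under 0.05 there were 23 (5.37% of those tested), of which 11 (2.57%) were higher and 12 (2.8%) were lower in contralateral cartilage. edgeR's quasi-likelihood test called 0, with 31 unadjusted. DESeq2 called 1, miR-199b-5p, with 34 unadjusted, and that call rested on contralateral 1, where the miRNA was at 5026 CPM against no more than 634 CPM in the other 8 libraries. The log2 difference was above 0 for 209 miRNAs (48.8%), and its median over all 428 was -0.01. In 8 miRNAs (1.87%) the 3 contralateral values did not overlap the 6 naive values, 4 higher (0.935%) and 4 lower (0.935%).

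A p that misses the threshold does not show that the knees are alike, so the 95% interval of each difference was read as well. For 217 miRNAs (50.7%) the whole interval lay within a 2-fold difference either way. That share depended on abundance. It was 14 of 100 miRNAs with a mean under 10 CPM (counts per 1000000 of scaled library size), 82 of 156 between 10 and 100 CPM, 64 of 100 between 100 and 1000 CPM and 57 of 72 above 1000 CPM. Without contralateral 1 the count was 265 of 451 tested (58.8%), and without contralateral 2 it was 129 of 454 (28.4%). A 2-fold difference therefore lay outside the interval for most abundant miRNAs and inside it for most scarce ones. Intervals that rest on shared animals may be too narrow, so the counts within 2-fold may be too high.

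**Figure D2:**
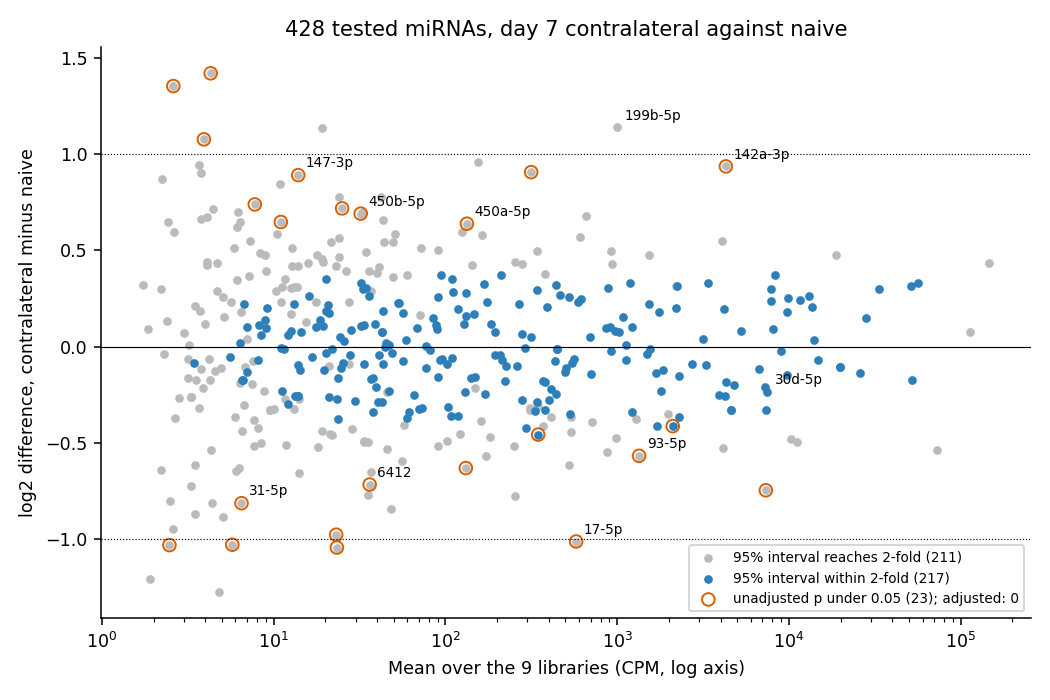
log2 difference (contralateral minus naive, limma-voom) against the mean level over the 9 libraries (CPM, log axis) for 428 miRNAs. Blue points have a 95% interval wholly within 2-fold (217), grey points do not, orange circles mark unadjusted p under 0.05 (23), and dotted lines mark 2-fold. Blue points become more frequent to the right, and no miRNA passed the adjusted threshold.

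Among miRNAs that were higher in contralateral cartilage, miR-450a-5p had the smallest p of the comparison. It is made from the hairpins Mir450-1 and Mir450-2 (GRCm38.p6, chrX:53048154-53048244 and chrX:53048299-53048367, minus strand, between annotated genes). Its level was 195, 134 and 197 CPM in contralateral 1, 2 and 3, and in the naive libraries it was lowest at 84.8, with a median of 106 and a highest value of 157. Contralateral 2 lay inside the naive range and the other two above it. The log2 difference was 0.64 (SE 0.23, 95% interval 0.17 to 1.11, limma-voom unadjusted p = 0.0104, adjusted p = 0.675), and 0.52 without contralateral 1. miR-450b-5p, whose hairpin lies next to these (chrX:53047997-53048078, minus strand), was at 45.3, 34.4 and 49.5 CPM against 15.98, 30.1 and 33.5 (naive lowest, median and highest), with no overlap. The log2 difference was 0.69 (SE 0.26), or 0.41 without naive 3 and 5, the 2 lowest naive values.

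Both miRNAs belong to the X-linked miR-322 to miR-450 cluster, whose miR-322 and miR-503 are relatives of miR-15 and miR-16 and restrain the cell cycle. Of its 9 tested members, 3 were above 0 and 6 below, with a median log2 difference of -0.21, against -0.01 over all tested miRNAs. Without contralateral 1, 7 of 9 were above 0 and the median was 0.05, without naive 3 and 5 it was -0.05, and with quality weights for libraries it was 0.04, with 5 of 9 above 0.

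miR-147-3p, a miRNA induced by Toll-like receptor signalling in macrophages, was at 35.02, 14.3 and 14.6 CPM in the contralateral libraries and at 4.92, 10.5 and 13.3 CPM (lowest, median and highest) in naive ones. The groups did not overlap, although contralateral 2 and 3 lay just above the highest naive value. The log2 difference was 0.89 (SE 0.33), or 0.51 without contralateral 1. miR-467e-5p and miR-187-3p were the other higher miRNAs without overlap. miR-467e-5p was at 15.1, 13.8 and 14.6 CPM against 6.14 to 12.3, and miR-187-3p at 22.7, 12.8 and 14.1 against 6.76 to 12.2. In both, the gap between the lowest contralateral and the highest naive value was small beside the naive range.

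miR-142a-3p, which is made in blood cell lineages and marks leukocytes, was at 10184, 3298 and 5666 CPM in contralateral 1, 2 and 3 and at 980, 3483 and 4658 CPM (lowest, median and highest) in naive libraries. Contralateral 2 lay below the naive median, so the groups overlapped. The log2 difference of 0.94 (SE 0.39) was 0.51 without contralateral 1 and 0.52 without naive 3 and 5. The leukocyte list as a whole did not share this direction, with 3 of its 8 tested members above 0, 5 below and a median log2 difference of -0.16, or -0.017 without contralateral 1. miR-144-3p, an erythroid miRNA, also overlapped, with 602, 229 and 525 CPM against 88.5 to 381 CPM, and had a log2 difference of 0.91 (SE 0.41), or 0.61 without contralateral 1 and 0.36 without naive 3 and 5. Of the 7 tested erythroid miRNAs, 2 were above 0 and 5 below, with a median of -0.18, and of -0.42 without contralateral 1.

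miR-6412, among the lower miRNAs, was at 24.0, 26.1 and 25.0 CPM in the contralateral libraries and at 32.4, 42.2 and 49.8 CPM (lowest, median and highest) in the naive libraries. Every contralateral value lay below every naive value, and contralateral 1 was no exception. The log2 difference was -0.72 (SE 0.27, 95% interval -1.27 to -0.16, unadjusted p = 0.0141, limma-voom adjusted p = 0.675), and it was -0.72 without contralateral 1 and -0.73 without naive 3 and 5. In the contralateral knee at day 1 its log2 difference from the same naive libraries was 0.18 (SE 0.26).

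miR-31-5p (hairpin chr4:88910557-88910662, minus strand, in an exon of AL805899.1), a miRNA known from epithelial and tumour biology, was at 4.12, 4.17 and 4.16 CPM against 6.09, 7.27 and 11.1 CPM (naive lowest, median and highest). These levels rest on 6, 16 and 10 reads in the contralateral libraries and on 10 to 16 reads in each naive library. The groups did not overlap, and the log2 difference was -0.81 (SE 0.33, unadjusted p = 0.0219, limma-voom adjusted p = 0.675). In the injured knee at day 7 the same miRNA was at 31.1 CPM on average (23.4 to 40.9, n = 3), a log2 difference of 2.05 from the same naive libraries (limma-voom adjusted p = 6.98e-06). The injured and contralateral comparisons share the naive libraries, so their values are set side by side only.

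**Figure D3:**
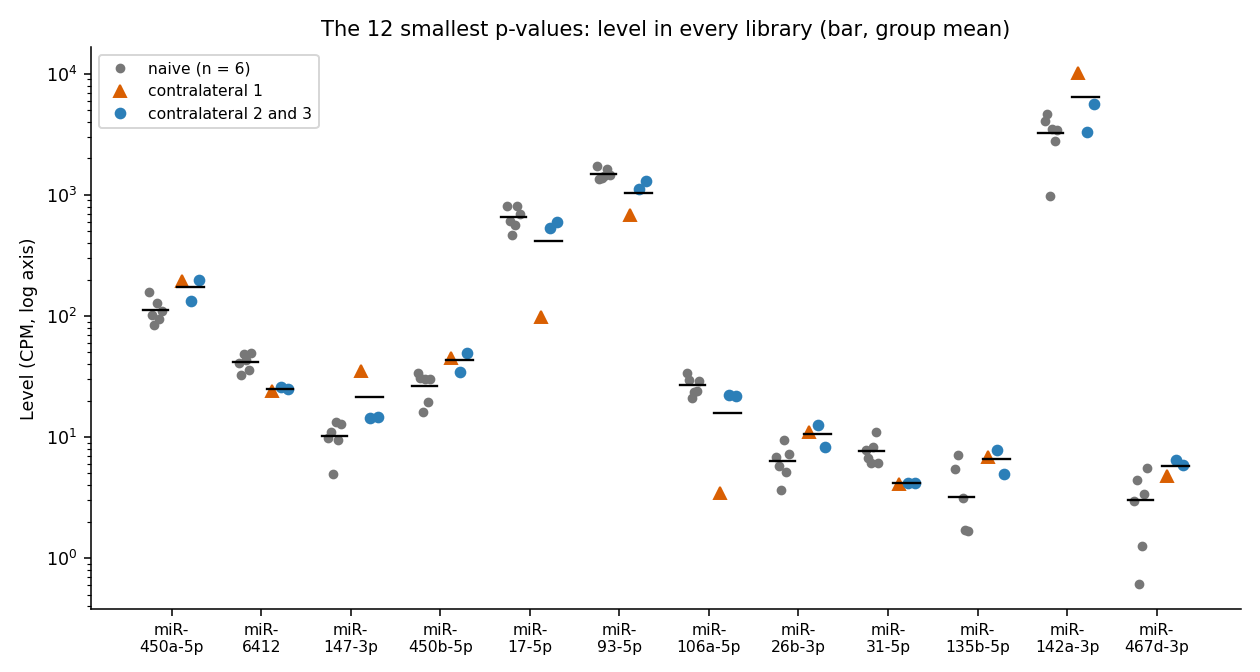
Level in every library (CPM, log axis) of the 12 miRNAs with the smallest unadjusted p. Grey points are the 6 naive libraries, orange triangles contralateral 1, blue points contralateral 2 and 3, and bars group means; a naive library with miR-135b-5p at 0 is not drawn. Contralateral values of miR-6412 and miR-31-5p lie together below all naive values, whereas for miR-17-5p, miR-106a-5p and miR-142a-3p contralateral 1 lies far from contralateral 2 and 3.

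The miR-17/92 cluster and its copies promote proliferation and are abundant in dividing cells. Of 15 tested miRNAs of the miR-17/92 and miR-106b clusters, 7 were above 0 and 8 below. Their median log2 difference was -0.04, or 0.08 without naive 3 and 5. The highest was miR-19a-3p, at 0.58, or 0.35 without contralateral 1. Over all tested miRNAs, 219 of 428 were below 0. The seed AAAGUGC, read after values were seen, joins some of these with the X-linked copies miR-106a-5p and miR-20b-5p. Of its 6 tested members, 5 were below 0, with a median log2 difference of -0.70, and without contralateral 1 all 6 were below 0 with a median of -0.23. Some members are near-identical in sequence, and reads of such miRNAs can be assigned to either name, so the 6 are not independent observations. With library totals only, or DESeq2 size factors, miR-20a-5p was below 0 as well. miR-93-5p, from the Mcm7 gene (hairpin chr5:138165523-138165610, minus strand), was at 683, 1115 and 1293 CPM against 1344, 1449 and 1726 CPM (naive lowest, median and highest), with no overlap. Its log2 difference was -0.57 (SE 0.22, unadjusted p = 0.0192, limma-voom adjusted p = 0.675), or -0.34 without contralateral 1. In the injured knee it was -0.76 (adjusted p = 0.02).

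miR-17-5p (hairpin chr14:115043671-115043754, plus strand, in an exon of Mir17hg) owed its place to 1 library. It was at 98.9, 537 and 601 CPM in contralateral 1, 2 and 3 and at 465, 652 and 813 CPM (lowest, median and highest) in the naive libraries. Between the groups the log2 difference was -1.01 (SE 0.39), and -0.22 without contralateral 1. miR-106a-5p, which differs from it by a single base (U10A, counted from 1 at the 5′ end with miR-17-5p first), was at 3.43, 22.4 and 21.6 CPM against 20.9 to 34.0. miR-20a-5p comes from the same host gene as miR-17-5p (hairpin chr14:115044157-115044263) and has its seed, and it went the other way in contralateral 1, at 1533 CPM, with 859 and 1015 CPM in the other contralateral libraries and 638 to 1371 CPM in naive ones. Its log2 difference was 0.01 (SE 0.24), or -0.25 without contralateral 1.

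The seed GCAGCAU gave a second pair. miR-103-3p and miR-107-3p sit in introns of pantothenate kinase genes (Pank3 on chr11:35782396-35782481 and Pank2 on chr2:131288052-131288137 for miR-103, Pank1 on chr19:34820687-34820773 for miR-107) and differ by G22C. miR-103-3p was at 1392, 1692 and 2105 CPM against 2042 to 2741 in naive libraries, and miR-107-3p at 201, 301 and 340 CPM against 304 to 435. The log2 differences were -0.41 (SE 0.18) and -0.46 (SE 0.20), and without contralateral 1 they were -0.31 and -0.27. Because reads of such near-identical miRNAs can be assigned to either name, the pair is not 2 independent observations.

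The 10 most abundant miRNAs all overlapped between the groups, which all but 8 (1.87%) of the 428 tested miRNAs did. Intervals were narrowest among abundant miRNAs. miR-30d-5p had one of the 3 narrowest intervals of the comparison and did not overlap, with 6158, 7043 and 6693 CPM against 7393, 7821 and 8317 CPM (naive lowest, median and highest). On the log2 scale the difference was -0.24 (SE 0.14, 95% interval -0.54 to 0.06, limma-voom adjusted p = 0.675), a fold of 0.849. The other narrow intervals belonged to let-7i-5p, with a log2 difference of 0.32 (-0.01 to 0.65), and miR-100-5p, with -0.26 (-0.59 to 0.08). let-7i-5p was at 69725, 46579 and 62052 CPM against 41552, 47661 and 50790. Its log2 difference ranged from 0.16 to 0.49 when 1 library was left out.

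By contrast, miR-148a-3p, on average the second most abundant miRNA with 11.1% of counts, varied widely in both groups. It was at 35116, 194254 and 126806 CPM in the contralateral libraries and at 41454, 82050 and 251151 CPM (lowest, median and highest) in naive ones, and its interval ran from -1.15 to 1.31 on the log2 scale. The difference itself was 0.08, or 0.73 without contralateral 1 and -0.42 without naive 3 and 5. miR-26a-5p was steady in naive libraries, at 71014 to 87615 CPM, and in contralateral 2 and 3, at 75868 and 84923 CPM, but was at 22977 CPM in contralateral 1. Its log2 difference of -0.54 (SE 0.27) was 0.00 without that library. The let-7 family, inhibitors of proliferation genes such as Lin28 and Hmga2, had 14 of 19 tested members above 0, with a median log2 difference of 0.15 and 0 called. Scaled by library totals only, which lowered all differences by a median of 0.12, 10 of 19 were above 0.

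The cartilage markers were present in every library. miR-140-5p was at 1912, 4983 and 6916 CPM against 3070, 4705 and 6995 CPM (naive lowest, median and highest), with a log2 difference of -0.20 (SE 0.33), which turned to 0.28 without contralateral 1 and was -0.41 without naive 3 and 5. miR-140-3p, the other arm of that hairpin, was at 2873, 2082 and 2958 CPM against 2232 to 3250 CPM, with a log2 difference of -0.09 (SE 0.19, 95% interval -0.49 to 0.30). The 5p arm was lowest in contralateral 1 and the 3p arm was not, although both come from 1 precursor. With miR-455, also a chondrocyte miRNA, all 4 tested cartilage markers overlapped between the groups, as did all but 8 (1.87%) of the 428 tested miRNAs. The summed level of the 4 markers was 5029 to 10159 CPM in contralateral and 6172 to 10499 CPM in naive libraries.

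Markers of other tissues were abundant. miR-1a-3p, a muscle miRNA, was the most abundant of all, with 234097, 132165 and 152383 CPM in contralateral 1, 2 and 3 and 63550, 138126 and 191106 CPM (lowest, median and highest) in naive libraries. This gave a log2 difference of 0.43 (SE 0.41), and 0.06 without naive 3 and 5. The 7 tested skeletal muscle miRNAs of 11 in the table summed to 136736 to 249993 CPM in contralateral and 67530 to 198954 CPM in naive libraries, lowest in naive 5 and naive 3. The list's median log2 difference was 0.31, and it was -0.34 without contralateral 1 and 0.06 without naive 3 and 5. The 6 vascular miRNAs, which include miR-126a-3p, summed to 72582 to 98208 CPM against 48414 to 83557 CPM, again lowest in naive 3 and 5. The sums of the 8 leukocyte miRNAs were 9243 to 16974 CPM against 6655 to 11228 CPM, and those of the 7 erythroid miRNAs 6052 to 9083 CPM against 6512 to 9057 CPM. Contralateral 1 had the highest muscle, vascular, leukocyte, erythroid, epithelial and neural sums of the 9 libraries, and the lowest cartilage sum. Its erythroid sum was 9083 CPM, beside 9057 CPM in naive 3. Lists not tied to these tissues were extreme in contralateral 1 as well. The sums of the let-7 and miR-29 families were highest there, and that of the miR-30 family was lowest. The epithelial list (4 of 11 tested) summed to 204 to 354 CPM and the neural list (2 of 8 tested) to 26.5 to 63.2 CPM over the 9 libraries. The part of adjoining tissue in the differences of single miRNAs was not tested.

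Loci that rose in the injured knee were then read in the contralateral one. miR-335, from an intron of the imprinted gene Mest (hairpin chr6:30741299-30741396, plus strand), is such a locus. miR-335-3p was at 6.87, 38.4 and 42.4 CPM in contralateral 1, 2 and 3 and at 24.0, 34.6 and 52.9 CPM (lowest, median and highest) in naive libraries, against 431 CPM (306 to 501, n = 3) in injured cartilage. Set against naive, it differed by a log2 value of -0.49 (SE 0.40) in the contralateral and 3.60 in the injured knee (limma-voom adjusted p = 5.93e-07). miR-335-5p had 1 read, 0.687 CPM, in contralateral 1 and 18.3 and 19.5 CPM in the others, against 8.60 to 20.2 CPM. Without contralateral 1 the log2 difference of miR-335-3p turned to 0.20, and that of miR-335-5p turned from -0.66 to 0.37.

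The study's injury-associated miRNAs were picked on these libraries and are not an independent set. miR-21a-5p was at 7532, 7183 and 11871 CPM against 3099, 8175 and 9475 CPM (naive lowest, median and highest) and at 25342 CPM on average in injured cartilage. The log2 difference came to 0.30 (SE 0.30, 95% interval -0.33 to 0.93) in the contralateral knee, or -0.036 without naive 3 and 5, and 1.85 in the injured knee (limma-voom adjusted p = 8.23e-05). miR-199a-3p, which cannot be told from miR-199b-3p by sequence and has identical counts in the table, was at 11949, 20821 and 23766 CPM against 13009 to 26304 CPM. The fitted log2 difference was -0.11 (SE 0.27) in the contralateral knee, or 0.14 without contralateral 1 and -0.34 without naive 3 and 5, and 1.19 in the injured knee (adjusted p = 0.00201). miR-27b-3p had a log2 difference of 0.04 (95% interval -0.38 to 0.46), or -0.14 without naive 3 and 5. miR-214-5p, from the same primary transcript as miR-199a-2, differed by 0.24 (SE 0.25), or 0.01 without naive 3 and 5, against 1.58 in the injured knee (adjusted p = 6.58e-05).

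miR-34c-5p, of the p53-responsive miR-34 family, was at 90.7, 40.2 and 67.8 CPM against 25.2, 43.7 and 54.3 CPM. In the fit the log2 difference was 0.59 (SE 0.29, 95% interval -0.02 to 1.19), or 0.31 without contralateral 1, and it was 2.86 in the injured knee (limma-voom adjusted p = 5.6e-07). Of 5 tested members of the family, 3 were above 0, beside 209 of all 428 (48.8%). The family's median log2 difference was 0.46, or 0.05 without contralateral 1 and 0.13 without naive 3 and 5. With quality weights for libraries it was 0.0044.

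The imprinted cluster on 12qF1, expressed from the maternal chromosome in the Dlk1 to Meg3 region, is a large group of miRNA hairpins. Of 47 tested miRNAs, 35 were below 0 and 12 above, beside 219 and 209 of all 428. None was called (0 of 47), and 2 (miR-668-3p and miR-433-3p) were at an unadjusted p under 0.05, beside 23 of 428 (5.37%). The median log2 difference was -0.23, and it was -0.16 without contralateral 1, with 12 above 0, and -0.23 without naive 3 and 5. The summed level of its tested members was 5792, 5101 and 4389 CPM in contralateral 1, 2 and 3 and 5189 to 6096 CPM in naive libraries. In the injured knee the median of the same list was 1.72.

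miRNAs that fell in the injured knee were read as well. Of these there were 16 (limma-voom adjusted p under 0.05), with a median log2 difference of -0.87 in the injured and -0.30 in the contralateral knee, while the 62 that rose had medians of 1.84 and -0.11. The sets were chosen against the same naive libraries, so the contralateral medians are not independent of the choice. miR-150-5p, a miRNA of mature lymphocytes, was at 374, 383 and 354 CPM in contralateral 1, 2 and 3 and at 359, 593 and 840 CPM (lowest, median and highest) in naive libraries. It differed by a log2 value of -0.61 (SE 0.35), or -0.36 without naive 3 and 5, and by -1.54 in the injured knee (limma-voom adjusted p = 0.0032). miR-486a-5p, an erythroid miRNA with the same counts as miR-486b-5p, was at 4355, 4173 and 3230 CPM against 3937 to 6939 CPM, and differed by -0.33 (SE 0.23) and, in the injured knee, by -1.22.

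**Figure D4:**
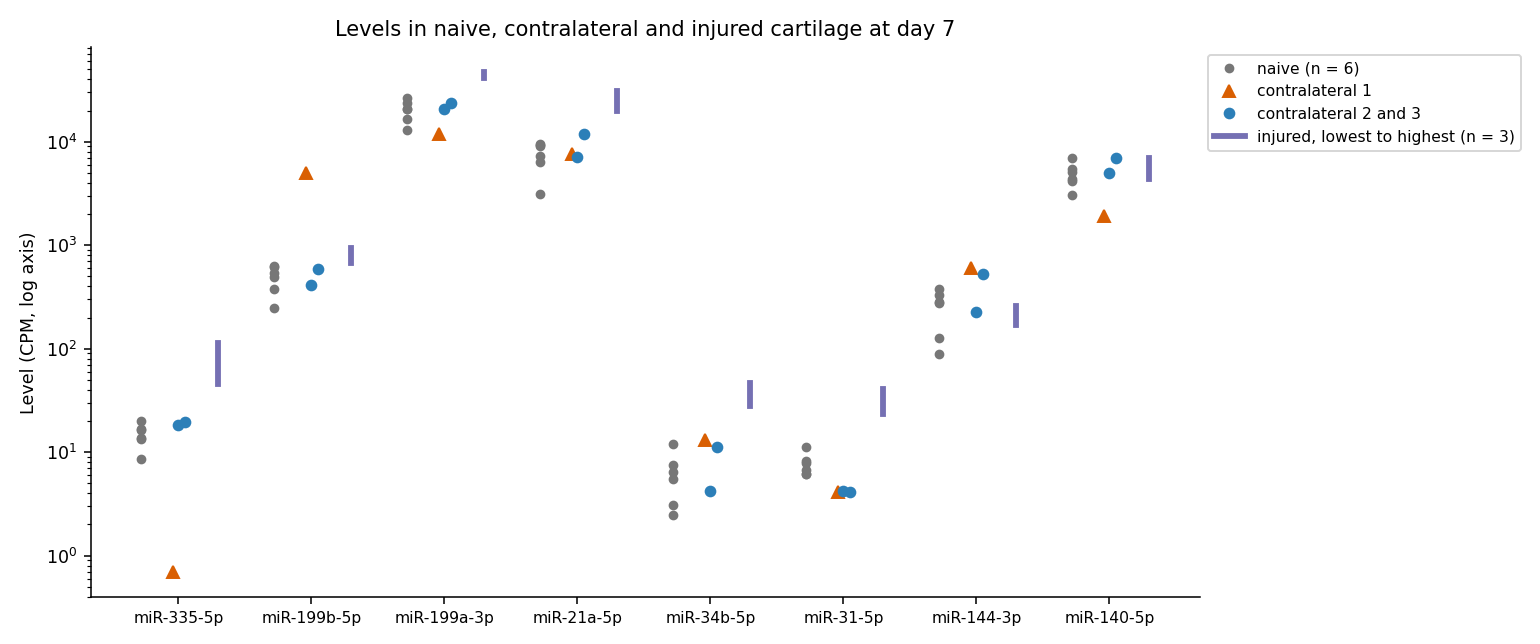
Level (CPM, log axis) of 8 miRNAs in naive (grey, n = 6), contralateral (orange triangle, contralateral 1; blue, contralateral 2 and 3) and injured cartilage at day 7 (purple bar, lowest to highest of 3 libraries). Injured libraries lie above the other groups for miR-335-5p, miR-199a-3p, miR-21a-5p, miR-34b-5p and miR-31-5p, where contralateral values lie in or below the range of naive ones or, as in miR-21a-5p and miR-34b-5p, no higher than 11871 and 13.05 CPM.

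The miR-29 family, which targets collagen and other matrix genes, had all 5 tested members above 0, with a median log2 difference of 0.50 and 0 called. miR-29a-3p was at 5807, 2787 and 3459 CPM against 2296, 3030 and 4244 CPM (naive lowest, median and highest), so contralateral 1 was highest and contralateral 2 lay within the naive range. Without contralateral 1 the family's median was 0.20, with 4 of 5 above 0, and without naive 3 and 5 it was also 0.20. The miR-30 family had 5 of 11 above 0 (median -0.02), the miRNAs of the Hox clusters (miR-10 and miR-196) 3 of 6 (median 0.04) and the load-responsive list (miR-21a, miR-27b, miR-221, miR-222 and miR-365) 6 of 10 (median 0.05). With library totals only, the medians of the Hox and load-responsive lists were -0.06 and -0.07, and without naive 3 and 5 they were -0.018 and -0.028 and that of the miR-30 family -0.20.

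**Figure D5:**
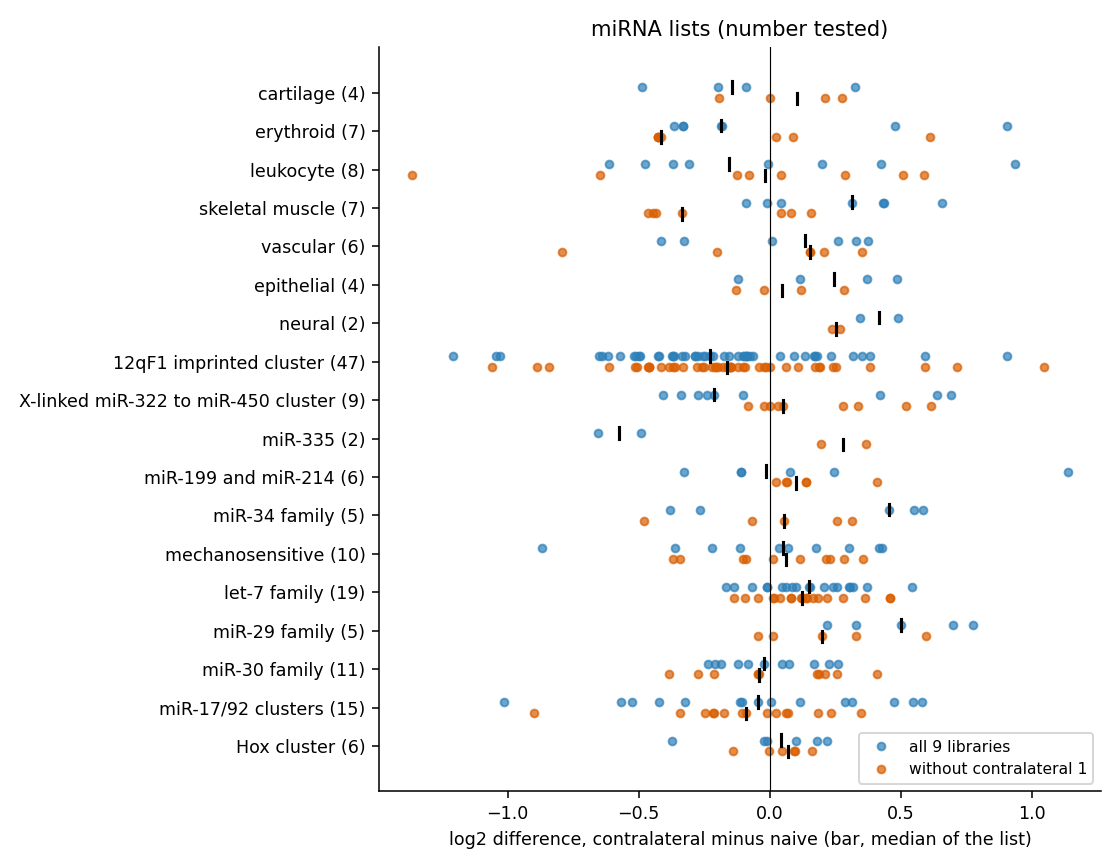
log2 difference (contralateral minus naive) of every tested member of each list, with all 9 libraries (blue) and without contralateral 1 (orange); bars mark list medians and the number tested is in brackets. Medians lie between -0.57 and 0.50 with all libraries, and those of miR-335, cartilage, skeletal muscle, miR-199 and miR-214 and the X-linked cluster change sign when contralateral 1 is left out.

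The deviations of contralateral 1 varied with the sequence of the miRNA. In 282 miRNAs with a sequence and a mean of at least 10 CPM, its deviation from the median of the other 8 libraries was compared with the number of each of the 16 dinucleotides. All 21 miRNAs that begin with CA were lower in contralateral 1, by a median of -1.69 on the log2 scale (-2.93 to -0.30), whereas in contralateral 2 and 3 the same miRNAs had medians of 0.04 and 0.04. The median deviation was 0.56 for the 71 miRNAs without a CA, 0.10 for 99 with 1, -0.62 for 60 with 2 and -1.09 for 52 with 3 or more. Pearson's r with the number of CA was -0.45 in contralateral 1 and between -0.02 and 0.17 in the other 8 libraries. Some of those varied with another dinucleotide. With the number of CC, r was -0.42 in contralateral 3, 0.32 in naive 3 and 0.33 in naive 5. These are descriptions over miRNAs of 1 library, and CA was singled out after all 16 had been seen. The CA start was likewise picked after values were seen, from groups by the first or last 2 bases. The other such groups of at least 10 miRNAs had medians in contralateral 1 from -0.89 (ending in CA) to 0.47 (beginning with UA). Other libraries varied with GC content, the percentage of G and C in the sequence. Pearson's r of the deviation with GC content was -0.50 in contralateral 3, 0.57 in naive 3 and 0.44 in naive 5, and 0.02 in contralateral 1. The log2 difference between the groups itself had r = -0.22 with GC content, and -0.33 without contralateral 1. Its part in the differences of single miRNAs was not tested.

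Near-identical miRNAs came apart in the same library. miR-17-5p and miR-20a-5p differ by C1U and C12U, and the ratio of their CPM was 0.0645 in contralateral 1 and 0.469 to 0.766 in the other 8 libraries. miR-27a-3p and miR-27b-3p differ by C19U alone, and their ratio was 0.184 in contralateral 1 and 0.674 to 0.993 elsewhere. miR-17-5p and miR-106a-5p, which both begin with CA and differ by U10A alone, had a ratio of 28.8, within the 20.6 to 33.9 of the others. Because reads of such near-identical miRNAs can be assigned to either name, that ratio does not compare 2 independent levels. miR-199b-5p was at 5026 CPM in contralateral 1 and at 414 and 595 CPM in contralateral 2 and 3, against 248 to 634 CPM in naive libraries, while miR-199a-5p was lowest in contralateral 1, at 3260 CPM against 6438 to 9505 CPM in the other 8. Without contralateral 1 the log2 difference of miR-199b-5p went from 1.14 to 0.06. Of the 12 miRNAs that were lower at an unadjusted p under 0.05, 4 begin with CA (miR-17-5p, miR-93-5p, miR-106a-5p and miR-191-5p). Of the 7 higher ones with a sequence, 0 do, beside 21 of the 282 miRNAs above. The fit that picked them includes contralateral 1, where all 21 were lower, so these counts are not independent of its deviations. The 282 have a mean of at least 10 CPM, a bound the picked miRNAs were not held to. The cause of the deviations of contralateral 1 was not tested.

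Of 3 measures of whole libraries, 0 passed a test between the groups. The mean total was 2669008 ± 1346578 counts for contralateral (SD, n = 3) and 1698267 ± 572651 for naive libraries (SD, n = 6) (exact permutation test over 84 splits, two-sided p = 0.214, adjusted p = 0.607 over 3 measures). The expected number of miRNAs detected after thinning every library to 864123 counts was 622 ± 10.2 (SD, n = 3) against 630 ± 24.1 (SD, n = 6; exact permutation p = 0.714, adjusted p = 0.714). The 5 most abundant miRNAs took 47.9 ± 2.11% of counts (SD, n = 3) against 44.3 ± 6.57% (SD, n = 6; exact permutation p = 0.405, adjusted p = 0.607). The smallest p this design allows is 0.0119.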

How the data were processed

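Cartilage RNA was made into libraries with the NEBNext small RNA kit. Per the labels and the study's methods, the authors trimmed reads with Trim Galore 0.6.6, aligned them to miRBase mature sequences with Bowtie 1.3.0 and counted them with SAMtools 1.12. The deposited values are raw counts per mature miRNA. The prefix of the library names in the table (U120) differs from that in the sample titles (R119), and rows were joined to samples by the library number alone. Counts of all 18 libraries were filtered with filterByExpr (defaults, minimum count 10), TMM-scaled and fitted with limma-voom (limma 3.58.1, edgeR 4.0.16, R 4.3.3), 1 mean for each of 5 groups, with Benjamini-Hochberg adjustment at 0.05 over 428 miRNAs. CPM are per 1000000 of TMM-scaled library size, and replicate numbers follow accession order. The study's block for mouse pools was not fitted, since the labels do not name pools. edgeR and DESeq2 1.42.0, other scalings and filters, and leaving libraries out were the alternatives. Scripts were tested on simulated data. No pair of libraries within a group agreed within sampling noise (chi-square per degree of freedom of at least 49.5 over 18 pairs). Named miRNAs were the 12 smallest p-values, miRNAs without overlap (mean of at least 10 CPM), the 10 most abundant, those the study named, the widest contralateral spreads, the 3 narrowest intervals and members of lists of at most 6. The sequence-based comparisons, and miR-20a-5p, miR-27a-3p, miR-103-3p, miR-107-3p, miR-144-3p, miR-150-5p, miR-486a-5p, miR-19a-3p and miR-191-5p, were chosen after values were seen. Members, lists and tests were chosen with earlier results of these data known. Hairpin positions and mature sequences are from RefSeq (GRCm38.p6) and host genes from GENCODE M21.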

Additional observations from a re-analysis of the deposited data

Results flagged for a closer look

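In 71 sets of 6 naive values (68 levels of named miRNAs and 3 library measures), 3 had an extreme library whose gap to its neighbour exceeded Dixon's 95% critical value of 0.625, and chance gives about 1 set in 20. miR-187-3p was at 6.76 CPM in naive 3 against 10.7 to 12.2 CPM in the other naive libraries. miR-214-3p was at 322 CPM in naive 5 against 145 to 206 CPM. miR-34b-3p was at 12.8 CPM in naive 5 against 6.14 to 8.37 CPM. Naive 3 and naive 5 are the libraries with the lowest totals.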

How the results depend on the processing

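The count of miRNAs called was 0 under every alternative but DESeq2, which called 1 (miR-199b-5p, log2 difference 2.10, adjusted p = 0.037). Leaving out 1 library at a time also gave 0 throughout, with 17 to 75 miRNAs at an unadjusted p under 0.05, most without contralateral 2 (75) and contralateral 3 (43). The other settings gave 11 to 60 unadjusted, 60 of them over 1412 miRNAs when every miRNA with a count was tested. Without naive 3 and 5, and without contralateral 1 as well, both chosen after seeing the data, 0 were called, with 16 and 18 unadjusted. Of the 23 at an unadjusted p under 0.05, 7 were also under it without contralateral 1 and 2 without all 3 libraries. The number of intervals within 2-fold was 129 to 265 when 1 library was left out, 179 to 298 under other settings that give an interval, and 217 as reported. The unthinned number of miRNAs detected was higher by 55.5 in contralateral libraries, reversing the direction after thinning. Without 1 library, the difference in library total ranged from 260820 to 1600160 counts, that in miRNAs detected at equal depth from -13.8 to -1.71 and that in the share of the 5 most abundant miRNAs from 2.13 to 5.18 percentage points.

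The named miRNAs, 69 in all, kept their direction and their side of the threshold in 564 of 600 values under settings other than leaving 1 library out, 35 turned sign and 1 was newly called. The values that turned sign are log2 differences. With DESeq2 size factors, miR-143-5p was at -0.0059. With library totals only, which shifted all miRNAs by a median of -0.12, miR-148a-3p was at -0.047, miR-27b-3p at -0.085, miR-143-5p at -0.10, miR-200c-3p at -0.0084 and miR-214-3p at -0.041. With every miRNA tested, miR-196a-5p was at 0.0083. With only the 2 groups fitted, miR-143-5p was at -0.015. With quality weights, miR-99a-5p was at 0.029, miR-199a-3p at 0.031, miR-199a-5p at 0.033, miR-335-5p at 0.078, miR-543-3p at 0.036, miR-674-3p at 0.090, miR-140-5p at 0.14, miR-455-3p at 0.0016, miR-126a-5p at 0.060, miR-143-5p at -0.35, miR-200b-3p at 0.15, miR-200c-3p at -0.025, miR-335-3p at 0.076, miR-199b-3p at 0.031, miR-34b-3p at 0.0027, miR-10a-3p at 0.014 and miR-196a-5p at 0.0024. With edgeR's quasi-likelihood test, miR-143-5p was at -0.077. With DESeq2, miR-143-5p was at -0.061 and miR-10b-3p at -0.016. Without naive 3 and 5, miR-148a-3p was at -0.42, miR-21a-5p at -0.036, miR-27b-3p at -0.14, miR-143-5p at -0.46, miR-145a-3p at -0.040, miR-200b-3p at 0.10 and miR-29b-3p at -0.17. The cause was not tested beyond the construction of each setting.

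Leaving out 1 library turned the sign of 31 named miRNAs in at least 1 case. The ranges of their log2 differences were -0.14 to 0.063 for miR-10b-5p, -0.12 to 0.094 for miR-196a-5p, -0.44 to 0.73 for miR-148a-3p, -0.20 to 0.18 for miR-143-5p, -0.26 to 0.043 for miR-200b-3p, -0.077 to 0.13 for miR-27b-3p, -0.27 to 0.14 for miR-199a-3p, -0.27 to 0.14 for miR-199b-3p, -0.10 to 0.26 for miR-10b-3p, -0.82 to 0.00067 for miR-26a-5p, -0.52 to 0.10 for miR-99a-5p, -0.045 to 0.26 for let-7c-5p, -0.32 to 0.080 for let-7g-5p, -0.61 to 0.064 for miR-199a-5p, -1.32 to 0.37 for miR-335-5p, -1.45 to 0.25 for miR-543-3p, -1.40 to 0.21 for miR-674-3p, -0.54 to 0.28 for miR-140-5p, -1.08 to 0.00016 for miR-455-3p, -0.79 to 0.35 for miR-126a-5p, -0.13 to 0.36 for miR-200c-3p, -0.87 to 0.20 for miR-335-3p, -0.066 to 0.99 for miR-34a-5p, -0.67 to 0.053 for miR-34b-3p, -0.046 to 0.45 for miR-29b-2-5p, -0.0044 to 0.34 for miR-10a-5p, -0.64 to 0.095 for miR-10a-3p, -0.19 to 0.075 for miR-140-3p, -0.0014 to 0.41 for miR-214-5p, -0.013 to 0.23 for miR-214-3p and -0.48 to 0.017 for miR-34c-3p.

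No paired analysis was possible because the replicate numbers follow accession order and the labels name no mice or pools. With 3 against 6 libraries and pools of animals, the size of difference that would pass the adjusted threshold was not computed at any level. The intervals are unadjusted and give no such limit. They lay wholly within 2-fold for 14 of 100 miRNAs under 10 CPM and for 82 of 156 between 10 and 100 CPM.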
